A study of Homo sapiens with 84 samples.

Results

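FaDu cells, an established line from a squamous cell carcinoma of the human pharynx, were exposed for 6 h to EpEX, the extracellular domain of the cell surface protein EpCAM, and compared with cells exposed to Fc. EpEX was given as a fusion with an immunoglobulin Fc region (EpEX-Fc), and the Fc region alone was its control. The libraries described here are those labelled EpEX 6 h and Fc 6 h with replicate number 3 or 4, 2 of each, hence 4 of the 84 libraries of the series. All cells, controls included, had been serum-starved for 24 h before treatment and stayed without serum. The 3′ ends of messenger RNAs were sequenced (QuantSeq 3′ FWD), so a count does not grow with the length of a transcript. For reference, the same replicate numbers hold FaDu cells left untreated or given EGF at 1.8 nM (EGFlow) or 9 nM (EGFhigh) for 6 h, with 2 libraries each, 1 library of EGFhigh + EpEX at 6 h, 2 Fc libraries and 1 EpEX library at 72 h. Kyse30, a line from an esophageal squamous cell carcinoma, was given EpEX or Fc for 6 h in 3 libraries each. Nothing in the labels states whether the libraries of a group, replicates 3 and 4, came from separate cultures. The p-values thus measure the spread between libraries, which may be technical.

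EpCAM is a membrane protein of epithelial and carcinoma cells. Proteases cut it at the membrane, which frees EpEX, and EpEX can bind the epidermal growth factor receptor (EGFR), a receptor tyrosine kinase. Active EGFR signals through RAS, RAF, MEK and ERK kinases, and ERK switches on immediate early genes, which encode transcription factors, then genes for further EGFR ligands and for phosphatases and adaptors that damp the pathway. In squamous carcinomas EGFR is abundant, and its strength of signaling is tied to growth on the one hand and epithelial-mesenchymal transition (EMT) on the other.

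Total counts on genes were 8041756 and 10773894 in the EpEX libraries (replicates 3 and 4) and 7889819 and 9618224 in the Fc libraries. The smallest amount these libraries can show, set at 3 counts, was 0.278 to 0.380 CPM (counts per 1000000 counts on genes), and such limits cover counting error only. Over 19071 genes, Spearman correlations of the 4 libraries with the other 16 FaDu libraries of replicates 3 and 4 were 0.932 to 0.973, but 0.804 to 0.864 with the 21 FaDu libraries of replicates 1 and 2, whose profiles did not match. In the latter, AREG stood at 23.2 and 4583 CPM under Fc and at 16.4 CPM under EpEX, and they were left out. The 4 libraries carried epithelial genes (EPCAM at 354 to 450 CPM and EGFR at 526 to 945 CPM, both before scaling), while DCN, LUM and PDGFRA of fibroblasts, PECAM1, KDR, TEK and CLDN5 of endothelial cells, and 8 of 10 leukocyte markers were at 0 in all of them. Summed levels of the 10 leukocyte markers were 0 and 0.186 CPM under EpEX and 0.634 and 0.520 CPM under Fc. The 9 fibroblast markers summed to 9.33 and 12 against 15.8 and 8.53 CPM, and the 6 endothelial markers to 5.22 and 5.38 against 8.11 and 4.78 CPM. Most of these sums came from COL1A1 of fibroblasts, at 6.758 to 12.93 CPM, and CDH5 of endothelial cells, at 4.601 to 7.858 CPM. COL3A1 of fibroblasts was at 0.9948 to 1.901 CPM, and the other fibroblast and endothelial markers were below 1 CPM in all 4 libraries. Mitochondrial genes held 8.88 and 8.96% of counts under EpEX and 10.6 and 8.51% under Fc. In bulk RNA, a gene expressed in fewer cells cannot be told apart from less RNA of it per cell.

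EpEX changed 560 of 16022 genes tested, with 393 higher and 167 lower than under Fc. A gene was called differentially expressed (DEG) where its absolute log2 fold change (log2FC) was over 0.5 and edgeR's quasi-likelihood test gave an adjusted p no higher than 0.05. The share called was 3.5% in either direction, 2.45% higher and 1.04% lower, and these shares are the background for each list of genes given here. The lists were chosen with earlier results of these data known, so a share above this background is a description. Among DEGs, the median log2FC was 1.25 for the genes that rose and -1.36 for those that fell, and 88 and 30 genes changed more than 4-fold up and down. In all 560 DEGs the EpEX and Fc libraries did not overlap in CPM, which was also true of 39.8% of all genes tested. Fc against untreated cells, measured in the same way, had 0 DEGs with edgeR. Before adjustment, p fell under 0.05 in 275 genes (1.72%), against 2225 (13.9%) for EpEX. With the libraries of replicates 1 and 2 in the fit, edgeR called 0 DEGs of EpEX against Fc, 829 genes had p under 0.05 before adjustment, and the log2FC of AREG was -1.85. Of the 4 libraries, leaving out Fc replicate 3, EpEX replicate 4 or Fc replicate 4 lowered the count to 254, 279 and 286 DEGs, and leaving out EpEX replicate 3 gave 467.

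The promoters of the 5 DEGs with the highest log2FC among immediate early genes, ERK feedback genes and the EGFR family for which RefSeq gave one (assembly GRCh38.p14) are printed, because they encode ligands of EGFR and transcription factors of the early response. Each spans 250 bases before to 50 bases after the first listed start, 5′ to 3′ on the strand of the gene. NR4A3, an orphan nuclear receptor, has its window at chr9:99821635-99821934 (plus strand). AREG (amphiregulin) lies at chr4:74444886-74445185 and EREG (epiregulin) at chr4:74364895-74365194, both plus strand and both ligands of EGFR. HBEGF, a further ligand, lies at chr5:140346554-140346853 (minus strand) and MAFF, a small MAF transcription factor, at chr22:38201744-38202043 (plus strand). Capitals mark the core of the cyclic AMP response element (CRE), TGACGT on either strand, which was chosen after the sequences had been read.
NR4A3: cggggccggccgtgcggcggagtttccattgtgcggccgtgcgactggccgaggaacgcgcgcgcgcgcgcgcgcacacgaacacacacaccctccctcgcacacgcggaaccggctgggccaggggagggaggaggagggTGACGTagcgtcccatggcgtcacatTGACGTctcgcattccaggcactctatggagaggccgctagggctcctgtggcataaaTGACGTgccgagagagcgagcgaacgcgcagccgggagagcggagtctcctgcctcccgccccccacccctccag
AREG: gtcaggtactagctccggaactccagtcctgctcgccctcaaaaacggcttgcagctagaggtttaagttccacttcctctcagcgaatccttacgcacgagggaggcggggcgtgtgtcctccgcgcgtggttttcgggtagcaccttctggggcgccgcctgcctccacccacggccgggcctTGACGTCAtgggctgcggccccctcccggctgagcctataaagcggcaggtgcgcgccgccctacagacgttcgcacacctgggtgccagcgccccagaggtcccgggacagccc
EREG: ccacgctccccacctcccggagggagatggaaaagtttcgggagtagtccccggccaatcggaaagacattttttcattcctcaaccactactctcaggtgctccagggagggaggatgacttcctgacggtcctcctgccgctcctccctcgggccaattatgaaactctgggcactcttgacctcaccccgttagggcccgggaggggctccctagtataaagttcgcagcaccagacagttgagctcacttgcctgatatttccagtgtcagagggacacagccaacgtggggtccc
HBEGF: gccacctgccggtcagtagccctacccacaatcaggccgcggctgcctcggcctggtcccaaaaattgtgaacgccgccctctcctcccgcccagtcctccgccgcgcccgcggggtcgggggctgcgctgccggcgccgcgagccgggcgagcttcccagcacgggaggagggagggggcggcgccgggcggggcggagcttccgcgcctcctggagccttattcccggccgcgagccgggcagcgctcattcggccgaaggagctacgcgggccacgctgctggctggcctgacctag
MAFF: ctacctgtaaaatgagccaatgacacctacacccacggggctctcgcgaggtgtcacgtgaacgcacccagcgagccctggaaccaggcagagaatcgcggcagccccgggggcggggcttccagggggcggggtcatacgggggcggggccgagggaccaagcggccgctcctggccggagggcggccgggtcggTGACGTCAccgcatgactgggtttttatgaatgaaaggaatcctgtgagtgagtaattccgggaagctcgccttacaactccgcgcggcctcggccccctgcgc
None of the 5 windows held the AP-1 motif TGACTCA, the ETS motif CCGGAAG, a CArG box or an NF-kB site, searched on both strands, and this says only that these letters are not in these windows. The CRE core occurred 3 times in NR4A3, 2 times in AREG and 2 times in MAFF, and not in EREG or HBEGF. In AREG and in MAFF the 2 matches overlap on opposite strands and are 1 palindromic stretch. Promoters were at hand for 303 of the genes that rose, 134 of those that fell and 10956 of all genes tested. The CRE core was in 15.8% of promoters of genes that rose, 9.70% of those that fell and 11.7% of all. The AP-1 motif was in 7.26%, 3.73% and 3.17%, the CArG box in 4.62%, 0.746% and 1.09%, the NF-kB site in 10.9%, 9.70% and 6.65%, and the ETS motif in 13.9%, 8.21% and 19.0%, in the same order. These shares are a description of windows of 300 bases and were not tested.

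Ligands of EGFR were among the genes with the largest rise. AREG stood at 15.9 and 26.8 CPM in the Fc libraries (replicates 3 and 4) and at 339 and 662 CPM in the EpEX libraries. Both EpEX libraries lay far above both Fc libraries, with a log2FC of 4.54 ± 0.49 (SE, n = 2 libraries per group; adjusted p = 1.92e-05 from edgeR). EREG rose from 0.995 and 2.53 CPM to 27.6 and 49.8 CPM (log2FC 4.42 ± 0.65; adjusted p = 0.000515 from edgeR). HBEGF, which is shed from the membrane like the other ligands, rose from 16.5 and 17.2 CPM to 171 and 279 CPM (3.74 ± 0.42; 2.72e-05). In each of these ligands replicate 4 was the higher of the EpEX libraries, and the groups did not overlap. TGFA, a further EGFR ligand, rose less, from 15.8 and 20.05 CPM to 37.5 and 52.5 CPM (log2FC 1.33 ± 0.32; adjusted p = 0.026 from edgeR). EGFR itself rose 1.60-fold, from 516 and 564 CPM to 745 and 987 CPM (log2FC 0.68 ± 0.17; adjusted p = 0.0297 from edgeR). The calls of EGFR and TGFA were lost without EpEX replicate 4 (adjusted p = 0.311 and 0.213 from edgeR), without Fc replicate 3 (0.199 and 0.215) or without Fc replicate 4 (0.0821 and 0.0801), and that of EGFR also with only the 6 h libraries (0.054) or only the EpEX and Fc libraries (0.21) in the fit. Of the 14 genes of this family, 11 were tested, 5 rose and 0 fell, and 3 were called without EpEX replicate 4, Fc replicate 3 or Fc replicate 4. The related receptors did not pass the test, with a log2FC of -0.47 for ERBB2 and -0.70 for ERBB3 (adjusted p = 0.433 and 0.106 from edgeR), nor did the ligand BTC with 0.10. The median of the 11 was 0.68, against -0.01 over all genes tested.

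**Figure D1:**
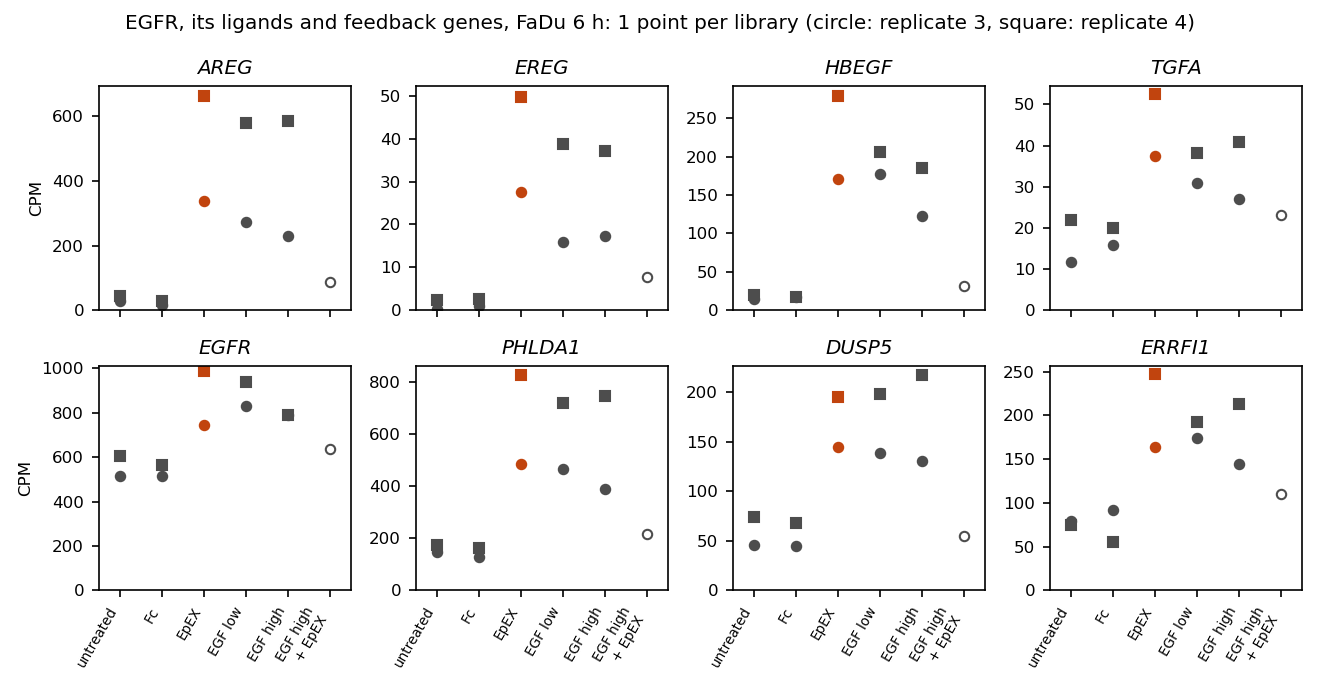
Level in CPM (y axis, from 0) of EGFR, 4 of its ligands and 3 feedback genes in every FaDu library at 6 h, by treatment (x axis), with circles for replicate 3 and squares for replicate 4. EpEX libraries (orange) lie above both Fc libraries in all 8 genes, and the open circle, the single EGFhigh + EpEX library, is at 87.5 CPM for AREG, under both EpEX libraries.

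Of 21 tested genes that damp EGFR and ERK signaling, 4 rose (19.0%), 0 fell and 17 did not pass, at a median log2FC of 0.84. Without EpEX replicate 4 or Fc replicate 3, 2 were called. PHLDA1, an inhibitor of signaling by receptor kinases, stood at 128 and 161 CPM under Fc and at 484 and 827 CPM under EpEX (log2FC 2.18 ± 0.31; adjusted p = 0.000397 from edgeR). ERRFI1, which binds EGFR and blocks its kinase, stood at 91.5 and 55.5 CPM under Fc and at 164 and 247 CPM under EpEX (1.48 ± 0.26; 0.00199). DUSP5 and DUSP4, phosphatases of ERK in the nucleus, had a log2FC of 1.60 ± 0.37 and 1.44 ± 0.38 (adjusted p = 0.0188 and 0.0464 from edgeR). The calls of DUSP5 and DUSP4 were lost without EpEX replicate 4 (adjusted p = 0.129 and 0.286 from edgeR) or Fc replicate 3 (0.204 and 0.366), and DUSP4 also with only the 6 h libraries (0.0995) or only the EpEX and Fc libraries (0.0777) in the fit and with genes of a mean of at least 5 CPM (0.0632). In these 4 genes the EpEX libraries lay above both Fc libraries. DUSP6, the phosphatase of ERK in the cytoplasm, overlapped between the groups, with 110 and 62.2 CPM under Fc and 105 and 202 CPM under EpEX (log2FC 0.84; adjusted p = 0.28 from edgeR). SPRY4, a Sprouty inhibitor, had 1.99 and 3.65 against 9.46 and 10.5 CPM and just missed the threshold (1.81 ± 0.50; 0.0537).

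A log2FC above 0 was found in 24 of 32 immediate early genes, against 7696 of all 16022 genes tested. Of these 32 early genes, 10 rose (31.2%) and 0 fell. The highest was NR4A3, which had 0.746 and 0 CPM under Fc and 21.1 and 13.2 CPM under EpEX. The Fc libraries were thus near or under the limit of 3 counts, and the log2FC of 5.58 ± 0.95 (adjusted p = 0.00184 from edgeR) is imprecise. ETS1, a transcription factor that ERK phosphorylates, rose from 8.33 and 19.9 CPM to 169 and 199 CPM (3.69 ± 0.33; 3.14e-06). MAFF had 23.0 and 35.2 against 169 and 184 CPM (2.60 ± 0.29; 2.72e-05). FOSL1, the AP-1 subunit FRA-1, had 60.9 and 97.8 against 318 and 555 CPM (2.46 ± 0.38; 0.00074). FOS, EGR1 and MYC, among the first genes to respond to a growth factor, did not pass the test at 6 h. FOS was at 81.1 and 59.9 CPM under Fc and at 15.2 and 49.0 CPM under EpEX, both EpEX libraries being lower (log2FC -1.12; adjusted p = 0.212 from edgeR). EGR1 had a log2FC of 0.90 (0.0774) and MYC of -0.44 (0.749). Of 13 targets that ERK induces through ETS factors or in growth, 4 rose (30.8%), namely SPHK1, EMP1, PHLDA2 and HMGA2. Of these, PHLDA2 rose from 257 and 268 to 864 and 776 CPM (1.64 ± 0.17; 1.45e-05).

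By size, PCDH7, a protocadherin of the cell surface, had the highest log2FC among named genes. It lies at chr4:30720415-31146805 (build GRCh38, plus strand), and stood at 0.497 and 0.304 CPM under Fc and at 25.2 and 20.9 CPM under EpEX (log2FC 5.83 ± 0.54; adjusted p = 4.2e-06 from edgeR). Levels under Fc were close to the limit of 3 counts, also for GLIPR1, SPHK1, IL11 and DAPP1, so the size of these rises is uncertain although the groups lay far apart. SPHK1, which makes the lipid signal sphingosine 1-phosphate, rose from 0.124 and 0.911 CPM to 20.9 and 15.3 CPM (5.02 ± 0.87; 0.00217). At higher counts, CREB5, a CRE-binding transcription factor, rose from 7.46 and 5.57 CPM to 153 and 120 CPM (4.40 ± 0.32; 4.54e-07). F3, the tissue factor that starts coagulation, rose from 16.9 and 12.8 CPM to 220 and 338 CPM (4.24 ± 0.51; 5.84e-05). From a low level, TAGLN, an actin-binding protein of smooth muscle and mesenchymal cells, rose from 1.99 and 0.911 CPM to 37.6 and 43.5 CPM (log2FC 4.82 ± 0.42, adjusted p = 2e-06 from edgeR). Fc levels were also low for TNFAIP3 (1.62 and 0.709 CPM) and EREG (0.995 and 2.53 CPM), so the size of these rises is uncertain too. The lower EpEX library was above the higher Fc library in all 12 genes, as the rule for naming them required. The named genes that rose further held GLIPR1 (5.17), TNFAIP3 (4.93), IL11 (4.73), EREG and DAPP1 (4.33), values being log2FC. Of the 12, IL11 was not called without Fc replicate 3 or 4 (adjusted p = 0.079 and 0.0526 from edgeR), nor DAPP1 without Fc replicate 3 (0.068).

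**Figure D2:**
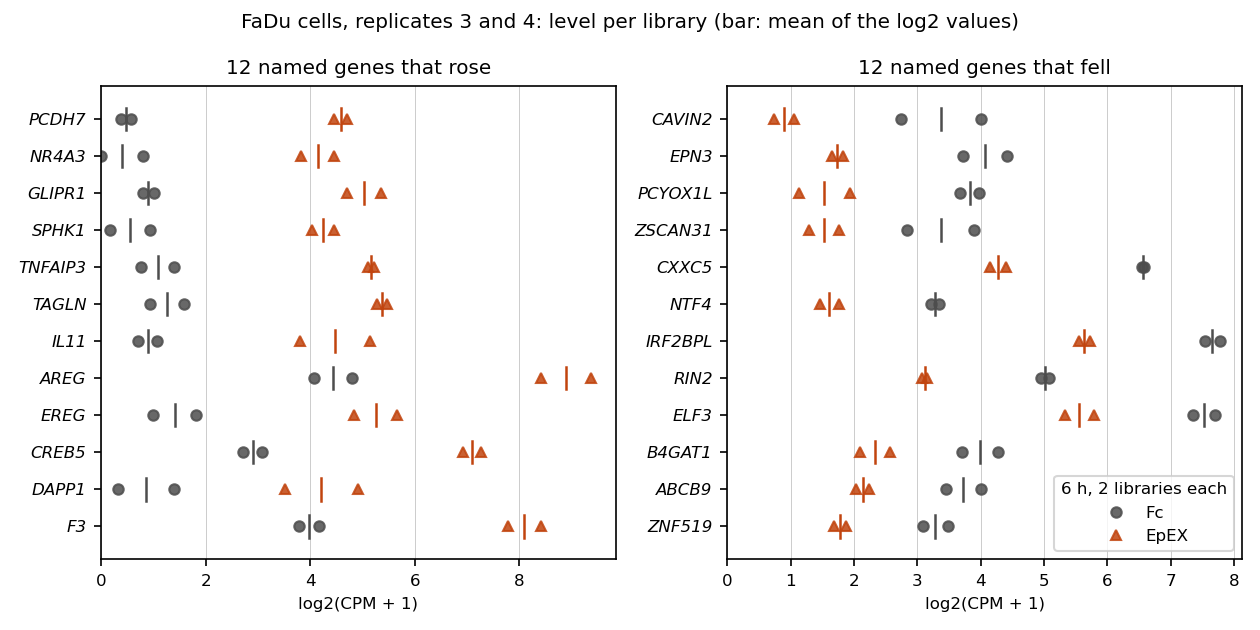
Level of each named gene in the 4 libraries, as log2(CPM + 1) on the x axis, with circles for Fc, triangles for EpEX and bars for the mean of the log2 values. The 12 genes that rose (left) and the 12 that fell (right) show no overlap of EpEX and Fc, with PCDH7 below 1 CPM in both Fc libraries and above 20 CPM in both EpEX libraries.

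Of the genes that fell, 25 of 167 had a mean under 5 CPM, against 14 of 393 that rose, and were left out of the named genes. CXXC5, a zinc finger protein, stood at 95.01 and 92.5 CPM under Fc and at 16.7 and 20.1 CPM under EpEX (log2FC -2.35 ± 0.20; adjusted p = 1.85e-06 from edgeR). IRF2BPL stood at 218 and 186 CPM against 51.7 and 45.9 CPM (-2.05 ± 0.19; 3.39e-06). ELF3, an ETS factor of epithelial differentiation, fell from 206 and 162 CPM to 54.1 and 39.4 CPM (-1.98 ± 0.27; 0.000232). RIN2, an exchange factor for RAB5, had 29.97 and 32.9 against 7.46 and 7.85 CPM (-2.03 ± 0.31; 0.000607), and EPN3, an endocytic adaptor of epithelial cells, 12.2 and 20.5 against 2.53 and 2.13 CPM (-2.81 ± 0.32; 3.7e-05). In all of these the groups lay apart by more than the replicates of a group. The lowest log2FC of a named gene was that of CAVIN2, a coat protein of caveolae, at -3.54 ± 0.76 (5.72 and 14.99 against 0.666 and 1.07 CPM; adjusted p = 0.0118 from edgeR). Other named genes that fell were PCYOX1L (-2.68), ZSCAN31 (-2.39), NTF4 (-2.08), B4GAT1 (-1.91), ABCB9 (-1.87) and ZNF519 (-1.85). ZNF519 and ZSCAN31 encode zinc finger proteins, NTF4 a neurotrophin and B4GAT1 a glycosyltransferase. Without EpEX replicate 4, CAVIN2, ZSCAN31, NTF4, B4GAT1, ABCB9 and ZNF519 kept their direction but were no longer called (adjusted p = 0.0772, 0.183, 0.128, 0.103, 0.126 and 0.169 from edgeR). The same held for CAVIN2, NTF4, B4GAT1 and ABCB9 without Fc replicate 4 (0.139, 0.0626, 0.089 and 0.127), for ZSCAN31 and ZNF519 without Fc replicate 3 (0.22 and 0.15), and for CAVIN2 and ZNF519 without EpEX replicate 3 (0.0795 and 0.0682).

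GLIPR1 and ABCB9 each overlap 2 other tested genes in the annotation, and SPHK1, TNFAIP3, TAGLN, EPN3, ZSCAN31, IRF2BPL and ELF3 each overlap 1. The strand setting of the counting is not given in the sources used here, so reads of such neighbours may not have been kept apart.

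Of 15 tested NF-kB targets and feedback genes, 7 rose (46.7%), 0 fell and 8 did not pass. With only the EpEX and Fc libraries in the fit, 4 were called. TNFAIP3, which encodes the deubiquitinase A20, rose from 1.62 and 0.709 CPM to 36.4 and 33.5 CPM (log2FC 4.93 ± 0.75; adjusted p = 0.000665 from edgeR). RELB and NFKB2, which form the NF-kB dimer of the alternative arm, had a log2FC of 2.21 ± 0.38 and 1.83 ± 0.34 (0.00217 and 0.00428). NFKBIA, the inhibitor IkB-alpha, rose from 109 and 86.6 CPM to 175 and 238 CPM (1.08 ± 0.19; 0.00252, but 0.0511 without Fc replicate 4 and 0.0533 with only the EpEX and Fc libraries). BIRC3, an inhibitor of apoptosis, had 0 and 0.203 CPM under Fc and 5.60 and 4.36 CPM under EpEX, and no fold is given. Of 17 chemokines and cytokines tested, 2 passed the test, IL11 and IL1A, against 1 without EpEX replicate 4 or Fc replicate 4, 0 without Fc replicate 3 and 3 without EpEX replicate 3. IL11, of the IL-6 family, rose from 0.622 and 1.11 CPM to 13.1 and 34.3 CPM, while CXCL8 with 11.9 and 2.94 against 19.1 and 21.6 CPM did not pass (adjusted p = 0.253 from edgeR). None of 23 tested interferon-stimulated genes was called, at a median log2FC of -0.24.

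Of the EMT hallmark, 135 of 200 genes were tested, 21 rose (15.6%) and 0 fell, and their median log2FC was 0.36. The members with the highest log2FC were GLIPR1, TNFAIP3, TAGLN and AREG, of which TNFAIP3 and AREG are known as signaling genes. THBS1, a matrix glycoprotein, rose from 26.4 and 26.6 CPM to 287 and 256 CPM (3.36 ± 0.25; adjusted p = 4.54e-07 from edgeR). Of 92 tested genes of the partial EMT (pEMT) signature, 11 rose (12%) and 0 fell, among them TAGLN, F3 and THBS1, at a median log2FC of 0.20, and 6 were called without Fc replicate 3. Of 16 tested EMT transcription factors, cadherins and regulators, 0 rose and 1 fell, against 0 called without EpEX replicate 4 and 2 without EpEX replicate 3. The gene that fell was GRHL2, a guardian of the epithelial state, which went from 73.4 and 55.7 CPM to 36.4 and 31.4 CPM (-0.93 ± 0.19; 0.00998). VIM was at 2.74 and 0.405 CPM under Fc and 0.533 and 0.776 CPM under EpEX, overlapping, and CDH1 at 55.96 and 30.3 against 53.3 and 116 CPM (adjusted p = 0.107 from edgeR). In the 171 genes of the EGFR-mediated EMT signature 1 rose and 1 fell (0.585% each), at a median of -0.11. The study chose these genes on libraries of this series, among DEGs exclusive to EGFhigh in both lines. Genes that it had called under its other treatments were thus left out beforehand. Neither the low count nor the direction is therefore independent evidence.

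EPCAM itself, the gene from which EpEX derives, did not differ detectably, at 419 and 439 CPM under Fc and 379 and 418 CPM under EpEX (log2FC -0.11 ± 0.15; adjusted p = 0.835 from edgeR). Among genes of EpCAM and its processing, FHL2, a partner of the intracellular domain, rose from 119 and 99.1 CPM to 352 and 345 CPM (1.68 ± 0.16; 7.08e-06). ITGB4, the beta chain of the hemidesmosome integrin, was at 169 and 272 CPM under Fc and at 204 and 234 CPM under EpEX, with overlap (-0.01 ± 0.26; adjusted p = 1 from edgeR). Of the 5 genes the study singles out (DDIT4, FADD, ITGB4, NCEH1 and TIMP1), none was called, with log2FC from -0.56 to 0.77. The study took these 5 from its EGFR-mediated EMT signature, which holds only DEGs exclusive to EGFhigh. Their absence from the calls is thus not independent evidence. Among integrins outside the hemidesmosome, ITGA2, a collagen receptor chain, rose from 36.7 and 38.8 CPM to 147 and 125 CPM (1.85 ± 0.23; 9.93e-05), and ITGB1 by 0.88 ± 0.17. Without EpEX replicate 4 or Fc replicate 3, 1 integrin of this list was called.

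Epithelial differentiation genes moved unequally. Among 16 keratins 4 rose and 0 fell, with 2 called without EpEX replicate 3, Fc replicate 3 or Fc replicate 4. KRT17, a keratin of stressed and basal-like epithelium, rose from 589 and 864 CPM to 4108 and 3676 CPM (2.42 ± 0.21; 2.27e-06). KRT16, KRT18 and KRT8 had log2FC values of 1.02, 0.80 and 0.79, while KRT5 was at 245 and 281 CPM under Fc and 107 and 168 CPM under EpEX and did not pass (-0.93; 0.117). Keratin genes have near-identical copies, and reads shared with them may have been left out or split. KLF5, a factor of basal epithelium, rose from 62.7 and 59.6 CPM to 248 and 251 CPM (2.03 ± 0.16; 1.18e-06), and none of 11 desmosome genes was called.

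CDKN1A, the cell cycle inhibitor p21, rose from 11.7 and 17.8 CPM to 148 and 232 CPM (log2FC 3.68 ± 0.35; adjusted p = 5.46e-06 from edgeR). It was the only one of 12 CDK inhibitors and D cyclins called, and CCND1 was at 724 and 849 against 684 and 770 CPM (-0.11; 0.833). None of 43 S phase genes rose and 3 fell (RRM1, DSCC1 and PRIM1). Their median was -0.47, and 40 of 43 had a log2FC below 0, against 8170 of all 16022 genes tested. Of 54 G2/M genes 3 fell (TOP2A, PSRC1 and DLGAP5) and 0 rose, at a median of -0.42. Without EpEX replicate 4, 0 genes of either phase list were called, while 0 S phase genes were called without Fc replicate 3, 0 G2/M genes without Fc replicate 4 and 10 S phase genes without EpEX replicate 3. TOP2A fell from 567 and 733 CPM to 414 and 376 CPM (-0.72 ± 0.18; 0.0286). Among 69 ribosome biogenesis genes the median log2FC was 0.25, and 63 were above 0, against 7696 of all 16022 genes tested. Of the 69, 4 rose (RRP12, DDX21, NOC3L and GNL2) and 0 fell. The count was 1 without EpEX replicate 3, 3 without EpEX replicate 4, 2 without Fc replicate 3 or 4 and 0 with only the EpEX and Fc libraries in the fit. DDX21 rose from 1111 and 1142 CPM to 2079.8 and 2126 CPM (0.90 ± 0.13; 0.000528). Of 28 genes linked to FOXO and starvation 3 fell, TXNIP, TOB1 and BCL6, and TXNIP, which inhibits thioredoxin, fell from 268 and 159 CPM to 75.8 and 77.6 CPM (-1.48 ± 0.22; 0.000495). Of this list 1 gene was called without EpEX replicate 4 or Fc replicate 4, and 2 without EpEX replicate 3 or Fc replicate 3.

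The other lists also held DEGs, against 2.45% of all genes tested that rose and 1.04% that fell. Shares that rose were 20% for ATF4 targets, 25% for p53 targets, 15.8% for TGF-beta genes and 13.3% for squamous lineage factors. They were 7.14% for YAP targets, 6.25% each for heat shock and urokinase genes, 5.88% for cornified envelope and 4.55% for glycolysis genes. Shares that fell were 7.14% for YAP targets, 6.25% for heat shock, 5.26% for TGF-beta and 4.17% for cholesterol genes. SESN2, DDIT3, CHAC1 and TRIB3 rose among 20 ATF4 stress targets, and SESN2 went from 230 and 245 CPM to 616 and 629 CPM (1.39 ± 0.18; adjusted p = 0.00013 from edgeR). CDKN1A, PMAIP1 and GADD45A rose among 12 DNA damage and p53 targets. TGFB1, PMEPA1 and ID3 rose and SMAD6 fell among 19 TGF-beta genes, SMAD6 being at 0 in both EpEX libraries and at 2.61 and 1.01 CPM under Fc. F3 rose and ARHGEF17 fell among 14 YAP targets, NDRG1 rose among 22 glycolysis and hypoxia genes, and INSIG1 fell among 24 cholesterol genes. HSPA5 rose and HSPA1B fell among 16 heat shock genes, the latter with a near-identical copy. KLK6 rose among 17 cornified envelope genes, SERPINB5 among 16 genes of the urokinase system and MMPs, and KLF5 and JAG1 among 15 squamous lineage factors. The number of calls in these lists depended on single libraries, except in the cornified envelope and squamous lineage lists. In the ATF4 list 1 gene was called without EpEX replicate 3, EpEX replicate 4 or Fc replicate 4, and 3 without Fc replicate 3. In the TGF-beta list 2 genes were called without EpEX replicate 3 or Fc replicate 4, and 0 without EpEX replicate 4 or Fc replicate 3. For the p53 targets, 2 were called without EpEX replicate 4 or Fc replicate 3 and 1 without Fc replicate 4. Called heat shock genes numbered 0 without either Fc library and 1 without EpEX replicate 3, cholesterol genes 0 without EpEX replicate 4 or Fc replicate 4, glycolysis and hypoxia genes 0 without either Fc library and 2 without EpEX replicate 3, urokinase and MMP genes 0 without EpEX replicate 4 or Fc replicate 4 and 2 without EpEX replicate 3, and YAP targets 1 in each of these fits except that without Fc replicate 3. For PLAU, the urokinase, replicates of a treatment lay further apart than the treatments, at 93.5 and 21.0 CPM under Fc and 12.8 and 169 CPM under EpEX.

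**Figure D3:**
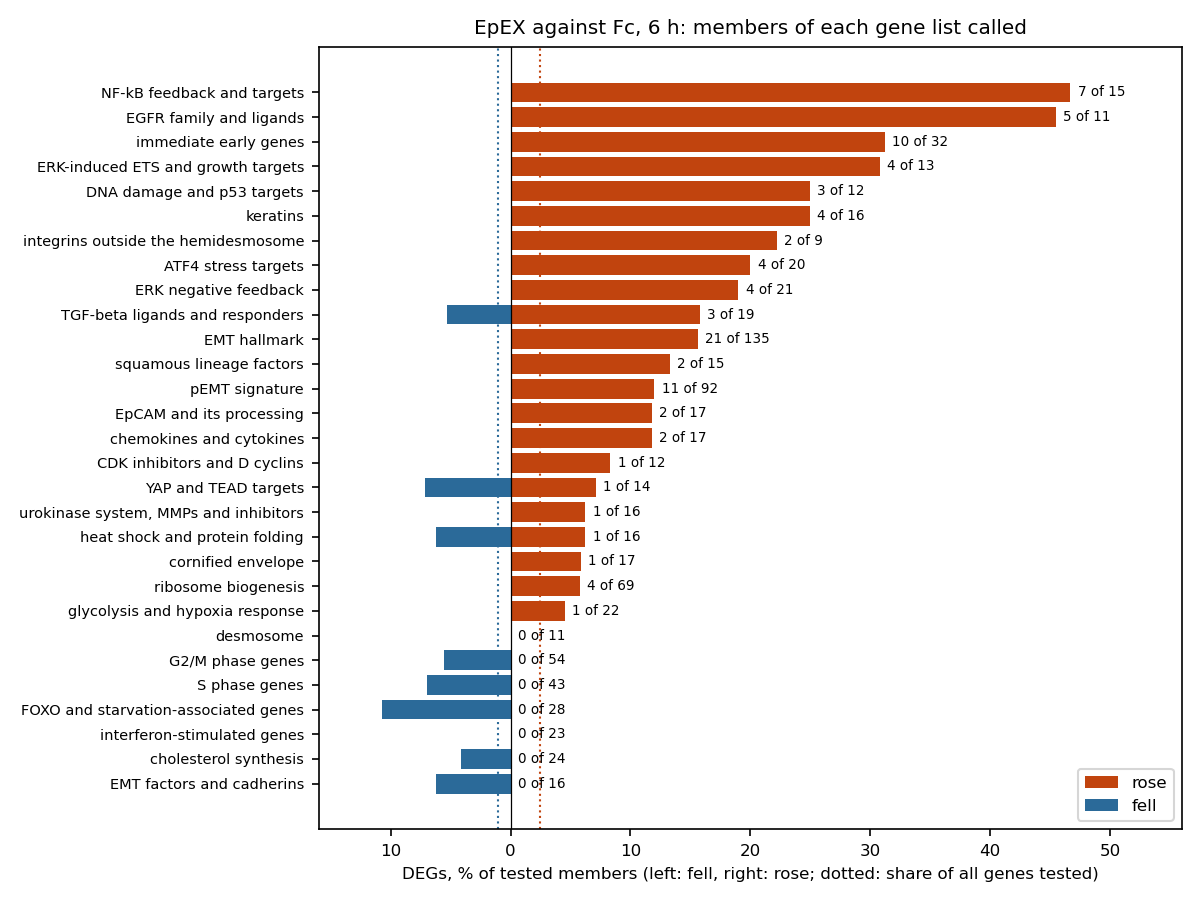
Share of tested members called as DEGs in the lists that the study did not choose (x axis, percent), to the right for genes that rose (with their number) and to the left for genes that fell, and dotted lines for the share of all genes tested, 2.45% and 1.04%. Among the lists drawn, NF-kB feedback, the EGFR family and immediate early genes have the highest shares of genes that rose, with 46.7%, 45.5% and 31.2%. The lists were chosen with earlier results of these data known, so the shares are a description.

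EGF was given to cells of the same replicate numbers, and its comparison with untreated cells shares no library with EpEX against Fc. By the study's account, EpEX-Fc was used at a higher molar concentration than either EGF dose. Sizes and counts set side by side here therefore do not compare potency. EGFlow had 553 DEGs, 3.45% of genes tested (409 or 2.55% higher, 144 or 0.899% lower), and EGFhigh 491, or 3.06% (367 or 2.29% higher, 124 or 0.774% lower). All 393 genes that rose under EpEX had a positive log2FC under EGFlow and under EGFhigh, against 47.7% and 48.5% of all genes. Of the 167 that fell, 164 and 163 were negative. Shared DEGs of the same direction numbered 356 with EGFlow (63.6% of the EpEX and 64.4% of the EGFlow DEGs) and 338 with EGFhigh (60.4% and 68.8%). Over all 16022 genes the Spearman correlation of log2FC values was 0.366 and 0.356, as a description across genes that are not independent replicates.

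No gene differed between the responses at the adjusted threshold. The test of the difference of log2FC (EpEX against Fc minus EGF against untreated) called 0 genes with edgeR for EGFlow and 0 for EGFhigh, while p before adjustment was under 0.05 in 420 (2.62%) and 452 genes (2.82%). For AREG the difference from EGFhigh was 1.05 (95% interval -0.22 to 2.33), for PCDH7 0.61 (-1.08 to 2.30), for CXXC5 -0.10 (-0.67 to 0.47) and for EGFR 0.19 (-0.31 to 0.68). The intervals of AREG and PCDH7 thus hold differences of more than 4-fold, and a missed threshold does not show that EpEX and EGF act alike. PCYOX1L fell by 2.68 under EpEX on the log2 scale and by 1.00 under EGFhigh (difference -1.68, interval -2.80 to -0.56). ICAM1, an adhesion molecule for leukocytes, rose by 1.79 under EpEX and 3.56 under EGFhigh, and neither difference passed the adjusted threshold. Over the EpEX DEGs the median difference from EGFhigh was 0.15 for genes that rose and -0.40 for genes that fell, which is a description, as EpEX values chose these genes.

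**Figure D4:**
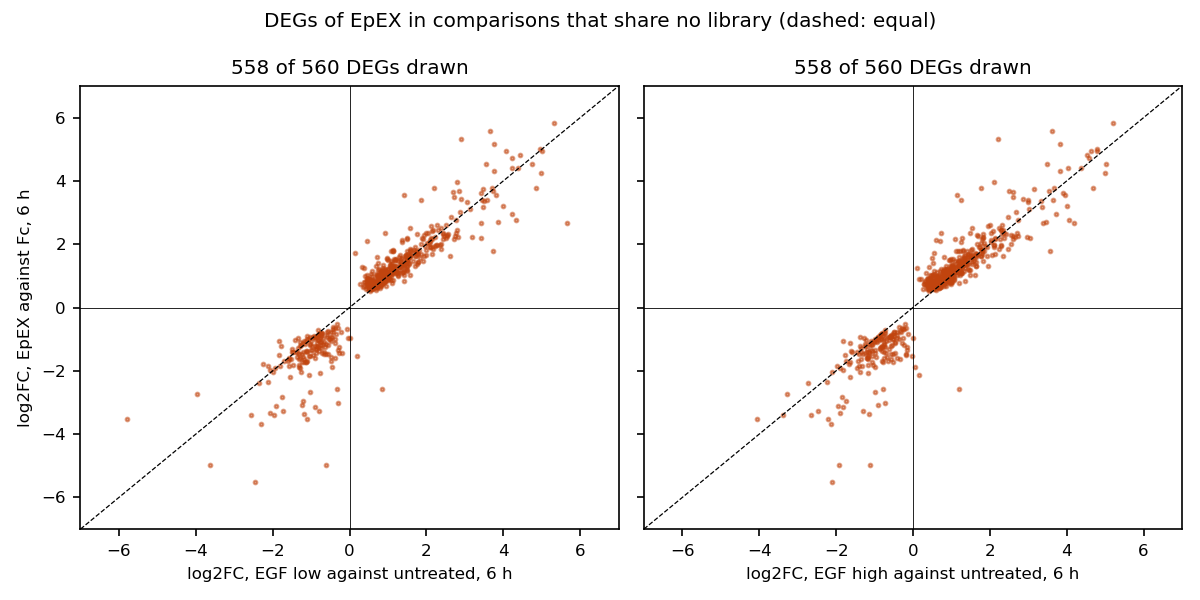
Log2FC of EpEX against Fc (y axis) and of EGFlow (left) or EGFhigh (right) against untreated cells (x axis) for the DEGs of EpEX, 1 point per gene, of which 558 of 560 lie within the axes of each panel. Of the 560 genes, which EpEX values chose, 422 have a larger absolute log2FC under EpEX than under EGFhigh, at unlike doses. All 393 genes that rose under EpEX lie to the right of 0 in both panels.

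At 72 h EpEX has 1 library, which is assumed to vary like the other groups. EpEX against Fc at 72 h had 0 DEGs with edgeR, and p before adjustment was under 0.05 in 268 genes (1.67%). Of the genes that rose at 6 h 200 of 393 had a positive log2FC at 72 h, against 47.75% of all genes. Of those that fell 72 of 167 had a negative one. The medians were 0.01 and 0.05. AREG was at 14.2 and 7.91 CPM under Fc and at 6.17 CPM under EpEX at 72 h, and CXXC5 at 73.4 and 72.8 against 82.3 CPM. The difference of the responses at 6 and 72 h passed the test in 91 genes (0.568%), of which 77 (0.481%) had a higher log2FC at 6 h. Of the 91, 89 were DEGs at 6 h, which is partly built in because the 6 h libraries enter both tests. Examples are PCDH7 (5.83 at 6 h and -2.13 at 72 h; adjusted p of the difference 0.000234 from edgeR) and CREB5 (4.40 and -0.52; 0.000325).

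In Kyse30 the same contrast gave 15 DEGs of 19634 genes (0.0764%) in a fit of both lines, in which FaDu had 173 (0.881%). Depth was lower in Kyse30, with 1944948 counts on genes in EpEX replicate 4 (3-count limit 1.54 CPM) and 4546701 to 6809146 in the others. Mitochondrial genes held 6.37 and 7.31% of counts in replicate 1 (EpEX and Fc), against 9.31 to 12.7% in replicates 3 and 4. Whether depth or replicate accounts for differences between the lines was not tested. Of the genes of the FaDu response, 327 of 393 that rose had a positive and 128 of 167 that fell a negative log2FC in Kyse30, at medians of 0.42 and -0.26 (46.7% of all genes were positive), and 10 of the 15 DEGs of Kyse30 were DEGs in FaDu. The difference between the lines passed the test in 25 genes (0.127%), 22 (0.112%) with a higher log2FC in FaDu, and in 3, 7 and 15 genes without EpEX replicate 4, Fc replicate 3 and Fc replicate 4 of FaDu. Among them, PCDH7 had a log2FC of 5.79 in FaDu and -0.03 in Kyse30, where levels were 4.29 to 18.1 CPM under Fc and 9.21 to 14.4 CPM under EpEX (adjusted p of the difference 9.19e-06 from edgeR). AREG (4.52 and 0.89; 0.00849) and EREG (4.39 and 0.66; 0.00384) started from higher levels in Kyse30, AREG at 173 to 306 CPM under Fc. CDKN1A had 3.66 and -0.14 (0.00496), TAGLN 4.78 and 0.40 (0.00364), and CLDN1, a tight junction protein, 3.08 and -0.60 (7.7e-05). In the opposite direction stood RIN2, TFAP4 and VWA1, RIN2 with -2.06 in FaDu and -0.07 in Kyse30 (0.00445).

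**Figure D5:**
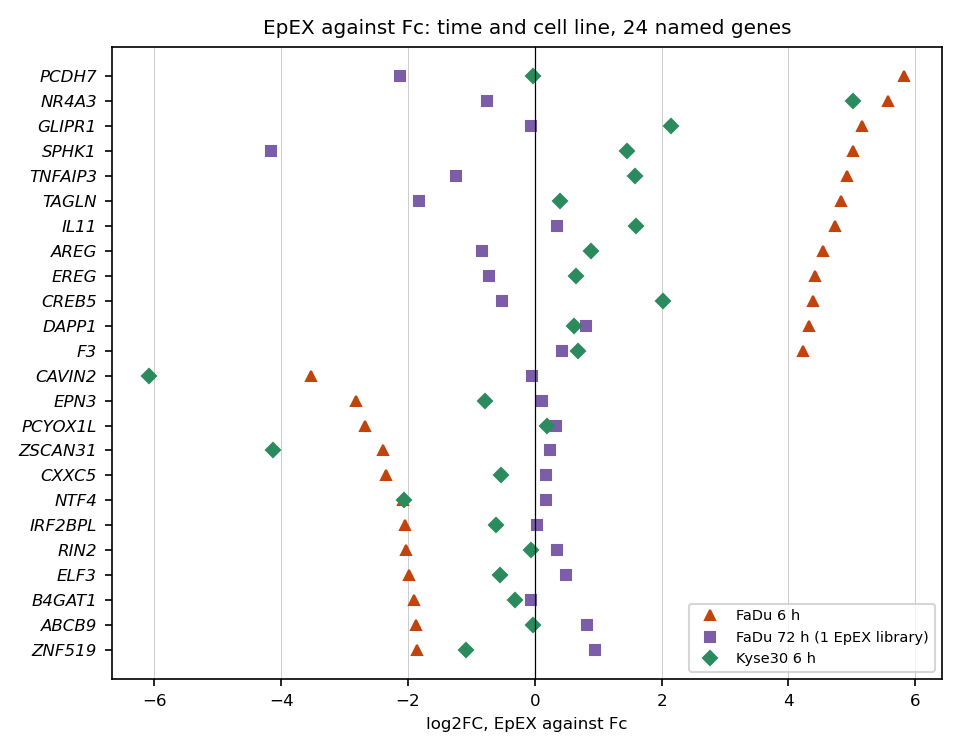
Log2FC of EpEX against Fc (x axis) of the 24 named genes (y axis) in FaDu cells at 6 h (triangles), in FaDu cells at 72 h with 1 EpEX library (squares) and in Kyse30 at 6 h (diamonds). The values at 6 h in FaDu chose these genes, so that they lie farthest from 0 for most genes is no result about time or line. The Kyse30 values of NR4A3 and CAVIN2 come from libraries at 0 in 1 of the groups and have no fixed size. SPHK1 at 72 h was at 0.140 CPM under EpEX, below the 3-count limit of 0.445 CPM, so its value has no fixed size either.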

How the data were processed

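The authors deposited, for each library, counts of reads per gene as whole numbers, not normalized and not pooled over replicates. STAR, HTSeq and the build GRCh38 (hg38) are named in the submitters' processing notes, while versions, annotation, strand setting and use of molecular identifiers are not given in the sources used here. Libraries were QuantSeq 3′ FWD. Table lines for reads without a gene were dropped; in the 4 libraries, 47.4 to 51.3% of reads had no unique alignment.

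Symbols were found for 58275 of 58395 gene identifiers, 57754 of them in a table of gene names and the rest in GENCODE 29. The 20 FaDu libraries of replicates 3 and 4 (13 groups, 7 residual degrees of freedom) were fitted together in edgeR 4.0.16 (R 4.3.3) with TMM scaling and the quasi-likelihood test, after genes with low counts had been left out (filterByExpr, minimum count 10, total 15), and p-values were adjusted by Benjamini-Hochberg over 16022 genes. Pooling the spread was needed because 2 against 2 libraries leave few degrees of freedom. Standard errors were derived from the F statistic, and CPM values are scaled by TMM unless stated. Kyse30 was compared in 1 fit of 63 libraries and 19634 genes. The code was tested on simulated data. The replicates of EpEX and of Fc differed by more than counting error (chi-square per degree of freedom 25.0 for EpEX, 23.3 for Fc).

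Named genes are the 12 DEGs with the highest and the 12 with the lowest log2FC whose libraries do not overlap and whose mean is at least 5 CPM, and up to 4 DEGs of each list, plus genes named for their role; those singled out for a difference from EGF (PCYOX1L, ICAM1) were picked after their values were seen. Results for some genes are not reported here. The members and the lists were chosen with earlier results of these data known. Alternatives were DESeq2 1.42.0, RLE size factors, other filters, fewer libraries in the fit, other controls, the replicate number as a block, all libraries labelled FaDu, no log2FC threshold and each library left out. Promoters came from RefSeq (GRCh38.p14) and motif searches ran in Python 3.11.15.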

Additional observations from a re-analysis of the deposited data

Results flagged for a closer look

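The EpEX response at 6 h differed between FaDu replicates 3 and 4 and Kyse30 in 25 genes by an interaction term over both lines (edgeR, adjusted p at most 0.05 and a difference over 0.5). PRSS22, a serine protease, had a log2FC of 3.54 in FaDu and 0.08 in Kyse30, LIMA1, which bundles actin, 2.12 and 0.01, KLF5 2.01 and 0.25, and KIAA1217 1.12 and -1.21. TFAP4 had -1.48 and 1.03. Of the 25 genes, 24 were DEGs of EpEX in FaDu. This overlap is partly built in, because the same FaDu libraries enter both tests.

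The responses at 6 h and 72 h differed in 91 genes by an interaction term that was added after the data had been seen and that rests on 1 EpEX library at 72 h. HBEGF had a log2FC of 3.74 at 6 h and -1.78 at 72 h, THBS1 3.36 and 0.17, and ITGA2 1.85 and -0.57. KRT17 had 2.42 and 0.03.

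The single library of EGFhigh + EpEX at 6 h (replicate 3), which enters no comparison, showed the response at a lower level than either treatment alone. Over the 393 genes that rose under EpEX its median log2 difference from the mean of the Fc libraries was 0.481, against 1.07 and 1.17 in the EGFhigh libraries, 1.17 and 1.19 in the EGFlow libraries and -0.0431 and 0.0855 in untreated cells at 6 h. It lay below both EpEX libraries in 381 of these genes and below both EGFhigh libraries in 354, but above both Fc libraries in 343. Over the 167 genes that fell its median was -0.474, against -0.922 and -1.07 in the EGFhigh libraries, and it lay above both EpEX libraries in 156 of them. AREG was at 87.5 CPM, PCDH7 at 0.781 CPM, CREB5 at 52.8 CPM, F3 at 29.6 CPM and CXXC5 at 37.1 CPM. The EpEX and Fc libraries chose both sets of genes, so positions against these libraries are a description only. Such positions were not counted over all genes tested, where the median log2 difference of this library from Fc was 0.0135. With 1 library the lower level has no replicate check and was not tested.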

How the results depend on the processing

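With edgeR, EpEX against Fc had 560 DEGs. DESeq2 called 755 (557 of the same genes), scaling by RLE 563, leaving low counts unfiltered 785, and the threshold on the adjusted p alone 560. The count was 232 with only the EpEX and Fc libraries in the fit (190 rose, 42 fell), 878 with Fc and untreated cells together as control (628 rose), and 0 rose and 0 fell with all libraries labelled FaDu. Genes that fell numbered 285 without a filter and 77 with only the 6 h libraries in the fit. With each library left out, DEGs were 254 to 467, 174 to 326 rose and 53 to 141 fell.

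No filter gave 1 gene that differed between EpEX and EGFhigh and 1 for EGFlow, against 0 otherwise, also with 0 in each fit without 1 library. The difference between 6 and 72 h passed in 205 genes with DESeq2, in 186 with the replicate block, and in 62 to 91 with a library left out. The difference between the lines passed in 57 genes with DESeq2, 47 with the replicate block and 3 to 17 with a library left out.

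Replicate numbers are shared by the groups, but deviations of same-numbered libraries correlated by -0.0362 between EpEX and Fc and by -0.0362 to 0.241 (median 0.0392) over 21 pairs of groups, so the numbers are not shown to pair libraries. The replicate block gave 763 DEGs (513 rose, 250 fell), which include all 560.

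All 24 named genes kept their direction and their call with DESeq2, RLE size factors and the replicate block. With only the EpEX and Fc libraries in the fit, ZSCAN31, NTF4, B4GAT1, ABCB9 and ZNF519 were not called (adjusted p = 0.0703, 0.0694, 0.0533, 0.0659 and 0.104 from edgeR), nor ZNF519 with only the 6 h libraries (0.0507), nor ABCB9 with untreated cells as control (0.0722). With all libraries labelled FaDu, log2FC values had the other sign for SPHK1 (-0.14), AREG (-1.85), F3 (-0.0924), CXXC5 (0.14), DUSP4 (-0.94), TGFA (-0.14), DUSP6 (-0.88), CCND1 (0.36) and TXNIP (0.10). Values of uncalled genes changed sign for ITGB4 (0.0242 with the replicate block, 0.0383 with untreated cells as control, 0.0136 with Fc and untreated cells), EPCAM (0.0141 with untreated cells) and MYC (0.14 with untreated cells). With a library left out, log2FC ran from -0.311 to 0.389 for ITGB4, from -0.223 to 0.0237 for CCND1 and from -1.27 to 0.109 for MYC. The causes were not tested. With a library left out, called members were 6 to 7 for NF-kB feedback, 8 to 9 for immediate early genes, 3 to 5 for the EGFR family, 2 to 4 for ERK feedback, 15 to 21 for the EMT hallmark, 6 to 12 for pEMT, 1 to 2 for FOXO genes, 0 to 2 for TGF-beta, 1 to 3 for ribosome biogenesis and 1 to 3 for ATF4 targets. With only the EpEX and Fc libraries in the fit, 4 NF-kB genes were called. Depth limits genes near 3 counts, such as PCDH7 and NR4A3 under Fc.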
